A study of Rattus norvegicus with 2 samples.

Results

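Neutrophil and monocyte effector genes were followed in the whole blood RNA of rats given lavender oil (LO) and of control rats. The set holds 39 genes chosen by name for their part in granules, oxidant production, sensing and lipid mediator synthesis. Of these, 27 were found on the array by the RefSeq accession of a probe, and they were carried by 29 probes. Over the whole array 8898 genes could be named by accession or gene name. The 12 genes not analysed here were Mpo, Elane, Ctsg, Ngp, Camp, Ltf, Ncf4, Csf3r, Fpr1, Itgb2, Fcer1g and Selplg.

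The LO group was 6 male rats that received oil of Lavandula angustifolia at 5 mg/kg in 10% ethanol, delivered into the stomach once daily over 13 days. The control group was 6 male rats given 10% ethanol alone, so that ethanol is shared by both groups, and all 12 rats were 7 weeks old when housed. Blood was sampled on day 14 under ether anesthesia. The strain is F334 in the paper and in one field of the sample labels and Wistar in another, and the blood came from the heart by the paper, with the portal vein added by the labels. The RNA of each group was combined into 1 pool. Both pools were hybridised to array 1, with LO in Cy5 and control in Cy3, and again to array 2 with the dyes exchanged, on 1 slide. The comparison therefore has 1 replicate, and it contains no error between rats and no test between conditions.

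Neutrophils are short-lived phagocytes that carry their weapons ready-made. Azurophil granules hold peroxidase, serine proteases and defensins, specific and gelatinase granules hold antimicrobial proteins and matrix proteases, and an NADPH oxidase assembles on the phagosome to make superoxide. Monocytes share much of this equipment, with lysozyme and the CSF-1 receptor as characteristic products. Much of the granule cargo is transcribed in the bone marrow, so the blood RNA of mature neutrophils is known to be poor in it, whereas S100a8 and S100a9 are abundant in them.

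In these pools the effector genes differed little between LO and control, and the alpha-defensin Defa5 was the exception. Each ratio below is LO over control. The mean of the log2 ratios of both arrays is called the LO part, in which a dye effect cancels. The array 1 ratio minus the LO part is called the dye part, positive where the ratio followed Cy5. A probe is called bright when the scanner software rated every spot as well above background in both pools on both arrays. Among the 29 member probes 24 were bright, from 22 genes, and 109 of their 116 channel readings were above background. Over the whole array 15371 of 41009 probes were bright. No bright member had an LO part of 1.5-fold or more, with 0 higher and 0 lower, against 0.026% higher and 0.0976% lower among all bright probes. A p of the scanner software under 0.01 on both arrays in one direction was met by 0 member probes higher in LO and by 1 lower, Defa5. Of all 41009 probes, 4 met it higher in LO (0.00975%) and 5 lower (0.0122%). This p rests on an error model of single spots and says nothing of the spread between rats. The rule follows the wording of the paper's methods, but the paper reports far more genes, so its own calls were not reproduced. Whether Defa5 is among those calls was not checked.

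**Figure D1:**
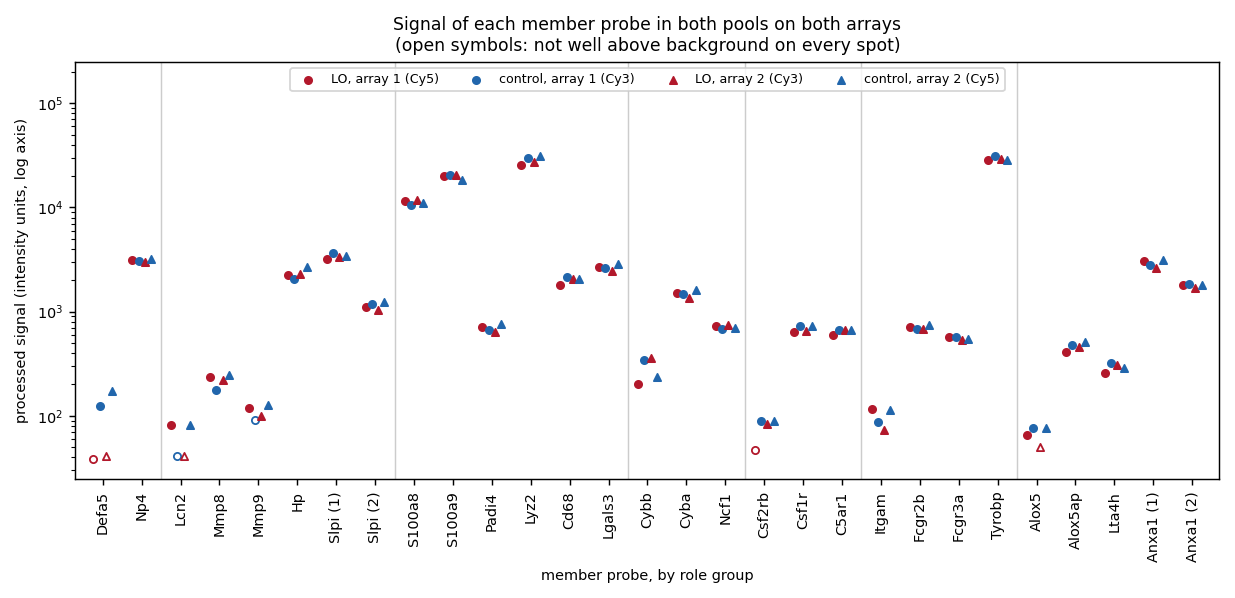
Processed signal (intensity units, log axis) of the 29 member probes in both pools, circles for array 1 and triangles for array 2, red for LO and blue for control, with open symbols where not every spot was well above background. Only Defa5 has both LO readings open and both control readings filled, and signals of different probes are not on 1 scale.

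The LO part of the 24 bright member probes lay slightly below 0, with a median of -0.079 on the log2 scale, which is a change of -5.30%. It was below 0 in 20 probes and above 0 in 4, whereas 51.3% of all bright probes were below 0 and their median was -0.0026. The LO part of the members ranged from -0.20 to 0.12 with an SD of 0.09. The software's error of an LO part was 0.14 to 0.25 for these probes, and 4 of them had an LO part larger than that error (11% of all bright probes did). Both arrays gave a lower signal in LO for 6 member probes (12.7% of all bright probes) and a higher one for 2 (11.7%), and the arrays went opposite ways for 16. The median log2 ratio was -0.017 on array 1 and -0.12 on array 2. On array 1 alone 12 of the 24 were below 0, and on array 2 alone 16, so the shift was seen mainly on array 2. The ratio of a single array holds a dye effect too, so these counts cannot separate dye from pool. In whole blood, fewer neutrophils or monocytes and less RNA per cell cannot be told apart.

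In most of these probes the ratio followed the dye more than the pool, as it did over the whole array. Across the 24 probes, which share both arrays and both pools, the ratios of array 1 and array 2 were correlated at -0.70 by Pearson's r and at -0.43 by Spearman's rho. Across all bright probes Pearson's r was also -0.70, and Spearman's rho was -0.68. The members thus matched the array by Pearson's r but were less strongly correlated by rank. Across the brightest 3843 of the bright probes Pearson's r was -0.73, and across the 13 member probes among them it was -0.28. In that part of the array the SD of the dye part was 0.11 over the members and 0.13 over all probes. The SD of the LO part was 0.084 over the members and 0.053 over all probes. The dye part was the larger in 8 of the 13 and in 2861 of the 3843. The reason for the weaker correlation of these 13 was not tested. The dye part was larger in size than the LO part in 16 of the 24 (75.6% of all bright probes). By definition these are the probes whose arrays went opposite ways, so both counts are 1 observation. Its median over the members was 0.019 and its SD 0.22. It passed 1.5-fold in 1 member, Cybb, where 6.49% of all bright probes passed it. No member met the p threshold on both arrays towards one dye (2.64% of all probes did).

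**Figure D2:**
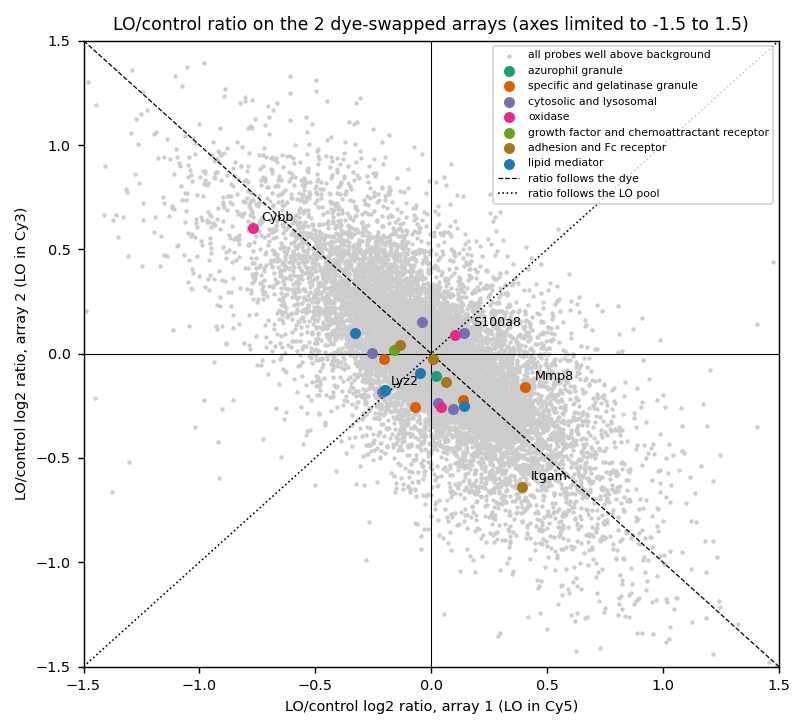
LO/control log2 ratio on array 1 (x axis) and array 2 (y axis) of 24 bright member probes, coloured by role, over all 15371 bright probes in grey (10 lie outside the axes). Cybb and Itgam sit near the dashed line of ratios that follow the dye, and Lyz2 sits on the dotted line of ratios that follow the pool.

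Azurophil granules were represented by the alpha-defensins Defa5 and Np4, cationic peptides that permeabilise microbial membranes. Defa5 gave a signal of 38.4 in LO and 125 in control on array 1, and of 41.1 in LO and 172 in control on array 2. Both LO readings were below both control readings and neither was well above background. The control pool was at least 2.92-fold higher, the limit that the dimmest signals rated above background allow. Its ratio followed the pool, with a dye part of 0.18. The annotation lists ratNP-1 and ratNP-2 as other names of Defa5, and how far this probe separates related defensins was not tested. Np4 lies on the same chromosome with 9 annotated genes in between, and it did not share the difference. Np4 gave 3097 in LO and 3054 in control on array 1 and 2973 and 3202 on array 2, an LO part of -0.043 with an error of 0.14.

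Specific and gelatinase granules were represented by 6 probes of 5 genes. Mmp8, the neutrophil collagenase, had the highest LO part of all bright members, 0.12 with an error of 0.17. Its signal was 237 in LO and 179 in control on array 1, and 222 and 248 on array 2, so LO was the higher pool on the first array only. Lcn2, a siderophore-binding protein, gave 80.9 in LO and 40.9 in control on array 1 and 41.4 and 82.4 on array 2. Whichever pool was in Cy5 was above background and the other was not. Its LO part was -0.0057 and its dye part 0.99. Mmp9, gelatinase B, was printed on 10 spots, which show how far 1 probe varies within an array. Its array 1 ratio was above 0 on all 10 spots, from 0.081 to 0.71 with a median of 0.40, and its array 2 ratio was below 0 on all 10, from -0.80 to -0.014 with a median of -0.37. The LO part of the spots was 0.013 ± 0.14 (SD over 10 spots), with 5 below 0 and 5 above, and the dye part was 0.36 ± 0.17. The haptoglobin gene Hp, whose product binds free hemoglobin, had an LO part of -0.044. Slpi, an inhibitor of neutrophil elastase, was carried by 2 probes with LO parts of -0.11 and -0.16. The first gave 3187 in LO and 3666 in control on array 1 and 3371 and 3435 on array 2. The second gave 1118 and 1172, then 1029 and 1226, so that LO was lower in all 4 pairs.

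Cytosolic and lysosomal products included the 2 calprotectin subunits S100a8 and S100a9, which bind calcium and withhold metals from microbes. S100a8 gave 11595 in LO and 10521 in control on array 1, and 11728 and 10968 on array 2. Both LO readings were above both control readings, with a mean ratio of 1.09 and an LO part of 0.12. That value turned to -0.025 when background-subtracted signals were only centred on the median. With that centring the median of all bright probes was -0.074, and 73.7% of them were below 0. S100a9, the next gene on the chromosome, gave 19847 and 20426 on array 1 and 20385 and 18372 on array 2. Its arrays disagreed in direction, and its LO part was 0.054 (-0.066 with the same centring).

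Lyz2, lysozyme, had the lowest LO part of the bright members. Its signal was 25686 in LO and 29739 in control on array 1, and 27277 in LO and 31001 in control on array 2. Both LO readings were below both control readings. The ratios were 0.864 and 0.880, a mean of 0.872, with an LO part of -0.20, a dye part of -0.013 and a software error of 0.14. Bright probes scattered less at high signal. In the brightest of 8 equal bands of signal the SD of the LO part over 1922 probes was 0.046, and 3 probes, Lyz2 included, lay as low as Lyz2. S100a8 was in the same band, where 17 probes lay as high. Normexp background correction with loess gave -0.16 for Lyz2, and every other alternative also left it below 0, from -0.31 upwards. Both readings came from 1 probe and 1 pool per group, so whether single rats differed is not known.

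**Figure D3:**
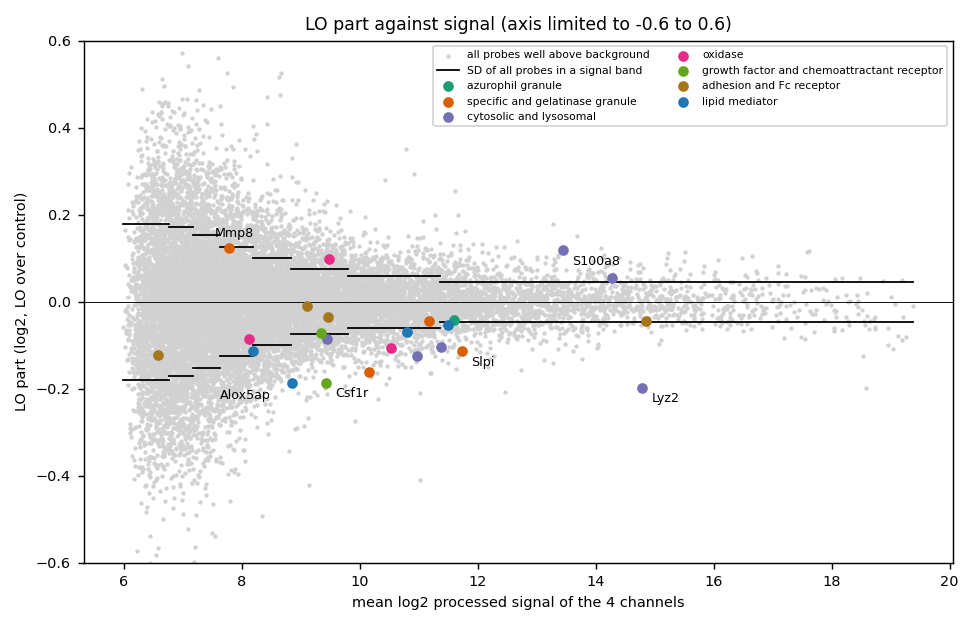
LO part (log2) against the mean log2 signal of the 4 channels for bright member probes, coloured by role, and all bright probes in grey (18 lie outside the axis), with black lines at 1 SD of all probes in each of 8 signal bands. The scatter narrows to 0.046 in the brightest band, where Lyz2 lies at -0.20 and S100a8 at 0.12.

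The other members of this group, Padi4, Cd68 and Lgals3, had LO parts between -0.13 and -0.086. Padi4 gave 706 in LO and 661 in control on array 1 and 639 and 769 on array 2. This enzyme makes the citrulline marks of neutrophil extracellular traps, Cd68 is a lysosomal glycoprotein of phagocytes and Lgals3 encodes galectin-3. In none of the 3 was LO lower on both arrays. Cd68, with the lowest value, gave 1786 in LO and 2130 in control on array 1 and 2054 and 2051 on array 2, so that its difference was present on array 1 alone.

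The region before the start of Lyz2 and of Mmp8, the lowest and highest of the bright members, is shown because myeloid genes are known for sites of the factors PU.1 and C/EBP there. The sequences are the 250 bases before the annotated start in RefSeq, build GRCr8, 5′ to 3′ on the strand of the gene, Lyz2 at chr7:54798012-54798261 (minus strand) and Mmp8 at chr8:13008640-13008889 (plus strand). Capitals mark matches to GAGGAA, the core of a PU.1 site, or TTGCNNAA, a form of C/EBP site, on either strand.
Lyz2: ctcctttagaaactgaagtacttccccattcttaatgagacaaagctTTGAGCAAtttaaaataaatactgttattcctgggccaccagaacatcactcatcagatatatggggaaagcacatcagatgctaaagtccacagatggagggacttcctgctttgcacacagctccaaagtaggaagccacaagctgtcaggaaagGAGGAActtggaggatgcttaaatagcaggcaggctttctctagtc
Mmp8: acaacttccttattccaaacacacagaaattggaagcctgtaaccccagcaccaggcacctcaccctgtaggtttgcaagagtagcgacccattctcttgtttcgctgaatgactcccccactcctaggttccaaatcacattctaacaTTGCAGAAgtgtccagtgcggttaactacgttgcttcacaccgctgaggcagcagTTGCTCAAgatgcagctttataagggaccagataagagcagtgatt
Lyz2 held 1 match to each motif and Mmp8 held 2 to the second. A promoter of 300 bases was given for 22 of the 39 members, of which 14 held GAGGAA (63.6%) and 7 held TTGCNNAA (31.8%), while 27.6% and 10.6% of all 33469 promoters did. No member promoter had overlapping matches of both. A match is a run of letters and not a measured site.

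The NADPH oxidase was represented by both membrane subunits, Cybb and Cyba, and the cytosolic organiser Ncf1. Cybb, the catalytic subunit gp91phox, gave 202 in LO and 345 in control on array 1, and 361 in LO and 238 in control on array 2. The pools changed places with the dyes, with a log2 ratio of -0.77 and then 0.60. Its LO part was -0.085 and its dye part -0.69, the largest of the bright members in size. Ncf1 gave 728 in LO and 678 in control on array 1 and 737 and 692 on array 2. LO was the higher pool on both arrays for Ncf1, with an LO part of 0.097, a dye part of 0.0058 and an error of 0.15. Cyba, the partner of Cybb in cytochrome b558, gave 1505 in LO and 1462 in control on array 1 and 1346 and 1608 on array 2, an LO part of -0.11. The 3 subunits therefore did not share a direction beyond their errors.

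**Figure D4:**
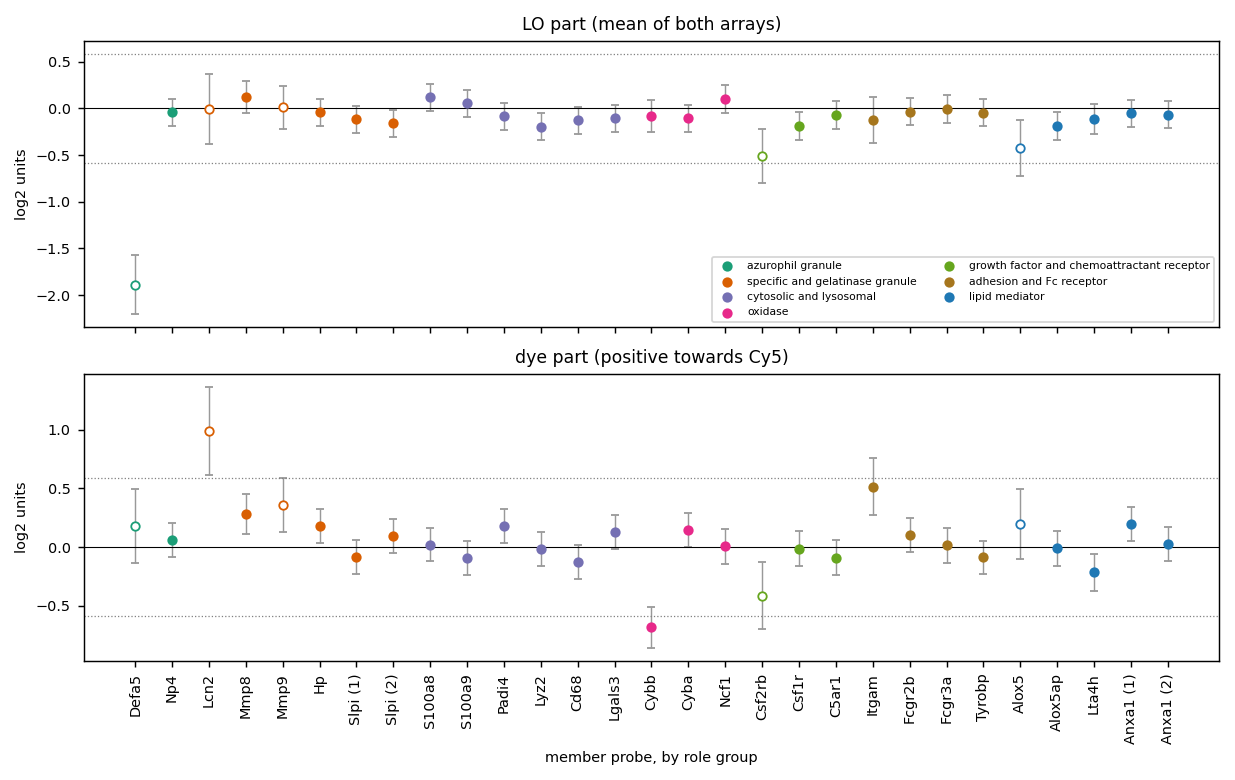
LO part (upper panel) and dye part (lower panel) in log2 units of the 29 member probes, with the software's error as bars, open symbols for probes that were not bright, and dotted lines at 1.5-fold. Among filled symbols only Cybb, at -0.69 in the lower panel, passes a dotted line. The open symbols of Defa5 and Lcn2 include readings not well above background, so their positions are not exact, and for Defa5 the bound is at least 2.92-fold.

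Among growth factor and chemoattractant receptors, Csf1r, on which monocytes and macrophages depend for survival, was lower in LO on both arrays. Its signal was 634 in LO and 728 in control on array 1, and 651 and 735 on array 2, and the LO readings did not overlap the control readings. The LO part was -0.19 with an error of 0.15, and 16 of the 1921 probes of its signal band lay as low. C5ar1, the receptor of the complement fragment C5a, gave 593 and 663 on array 1 and 671 and 663 on array 2. Its LO part was -0.072, which turned to 0.025 with normexp and loess. Csf2rb, the shared beta subunit of the receptors for GM-CSF, IL-3 and IL-5, was dim, at 47.2 in LO and 89.7 in control on array 1 and 82.6 and 88.5 on array 2. LO was above background on the second array only, where the ratio was 0.933, and its LO part of -0.51 rests on the dim reading of array 1.

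Adhesion and Fc receptors held 4 measured genes, all bright and all with arrays that disagreed in direction. Itgam, the alpha chain of the integrin Mac-1, gave 116 in LO and 88.2 in control on array 1, and 72.4 and 113 on array 2. It followed Cy5, with a dye part of 0.52 and an LO part of -0.12 with an error of 0.25. The inhibitory Fc receptor Fcgr2b and the activating Fcgr3a, which are neighbours on the chromosome, had LO parts of -0.036 and -0.0099. Fcgr3a gave 569 in LO and 566 in control on array 1 and 532 and 542 on array 2, the dye part of smallest size in this group. The adaptor Tyrobp, which signals for activating receptors of myeloid cells, had an LO part of -0.045, with 28681 in LO and 31476 in control on array 1 and 29454 and 28584 on array 2. The LO values of Tyrobp fell inside the range of its control values.

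Lipid mediator genes make leukotrienes or, for Anxa1, restrain leukocyte entry. Alox5ap, which presents arachidonic acid to 5-lipoxygenase, gave 413 in LO and 474 in control on array 1 and 457 and 516 on array 2. LO was the lower pool on both arrays, with ratios of 0.872 and 0.886, an LO part of -0.19 and an error of 0.15. In its signal band 17 of 1921 probes lay as low, and normexp with loess gave -0.095. Alox5, 5-lipoxygenase itself, gave 65.2 and 76.4 on array 1 and 50.1 and 77.1 on array 2, with LO above background on the first array only. Its LO part of -0.42 had an error of 0.30. Lta4h, which makes leukotriene B4, gave 258 in LO and 323 in control on array 1 and 306 and 285 on array 2, so that its direction turned with the dyes. The first probe of Anxa1 gave 3067 in LO and 2780 in control on array 1 and 2636 and 3136 on array 2, with an LO part of -0.054. The second gave 1788 and 1847, then 1672 and 1782, with an LO part of -0.069. Only the second was lower in LO on both arrays, and their dye parts were 0.20 and 0.022.

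The same measures were taken for 52 other genes of these pathways, of which 36 were found and 27 had a bright probe. None of their 28 bright probes had an LO part of 1.5-fold or more. It was below 0 in 17 and above 0 in 11, with a median of -0.059. By list the median was -0.072 for other oxidase genes, 0.015 for granule genes, 0.012 for receptors, 0.065 for lipid mediator genes, -0.064 for transcription factors and -0.23 for the 4 probes of monocyte genes. The lowest was Serpinb1a, an inhibitor of neutrophil serine proteases, at -0.36, where array 1 gave 0.11 and array 2 gave -0.82. Bpi, a granule protein that binds endotoxin, was the highest at 0.23, also with opposite signs on the arrays. Fn1, the fibronectin gene, listed here with monocyte genes, had LO parts of -0.28 and -0.21 in its 2 probes. The first gave -0.15 on array 1 and -0.40 on array 2, and the second gave 0.010 and -0.43. Both are among the 4 monocyte probes, and the arrays went opposite ways for 3 of those 4. The myeloid transcription factors Spi1, Cebpb, Cebpd, Cebpe and Klf4 lay between -0.077 and -0.060, with errors of 0.14 to 0.19. The arrays went opposite ways for 4 of these 5.

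Markers of the other cells of blood were checked, since whole blood holds them too. Of 41 genes, 27 were found and 24 of their probes were bright, with 0 past 1.5-fold, a median of -0.027, 14 below 0 and 10 above. Red cell and platelet markers were bright in all 6 and 5 probes found, as were those of NK cells in 6 of 6, and T cell markers in 5 of 6, while Cd4 was above background in no channel. The median was -0.071 for red cell, 0.0049 for platelet, 0.067 for T cell and -0.059 for NK cell markers. One probe each was bright for B cells, Cd79b at 0.10, and for eosinophils and basophils, Prg2 at -0.25. Among red cell probes, Alas2 and Hbb had dye parts of 1.11 and 0.55 towards Cy5, while the other 4, of Slc4a1, Bpgm and Gypc, had dye parts between -0.27 and -0.11. The summed signal of the 5 T cell probes was 38205 and 39950 in LO and 37149 and 37398 in control. Most of it came from Cd3d and Cd3g. Cd2 had an LO part of -0.22, and the other 4 were above 0. The sums of NK cell, platelet and red cell probes were higher in LO on array 1 and lower on array 2. For NK cells they were 8799 and 7986 in LO and 8771 and 8565 in control. Platelet sums were 230526 and 217040 in LO and 222109 and 219618 in control. Red cell sums were 1957745 and 1149566 in LO and 1342373 and 1804689 in control. For the 24 member probes the summed signal was 111479 and 113982 in LO against 118357 and 116461 in control, 0.942 and 0.979 of the control. Most of that sum came from Tyrobp, Lyz2, S100a9 and S100a8, and it describes these probes rather than the list. The part of cell composition in the values of the members was not tested.

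**Figure D5:**
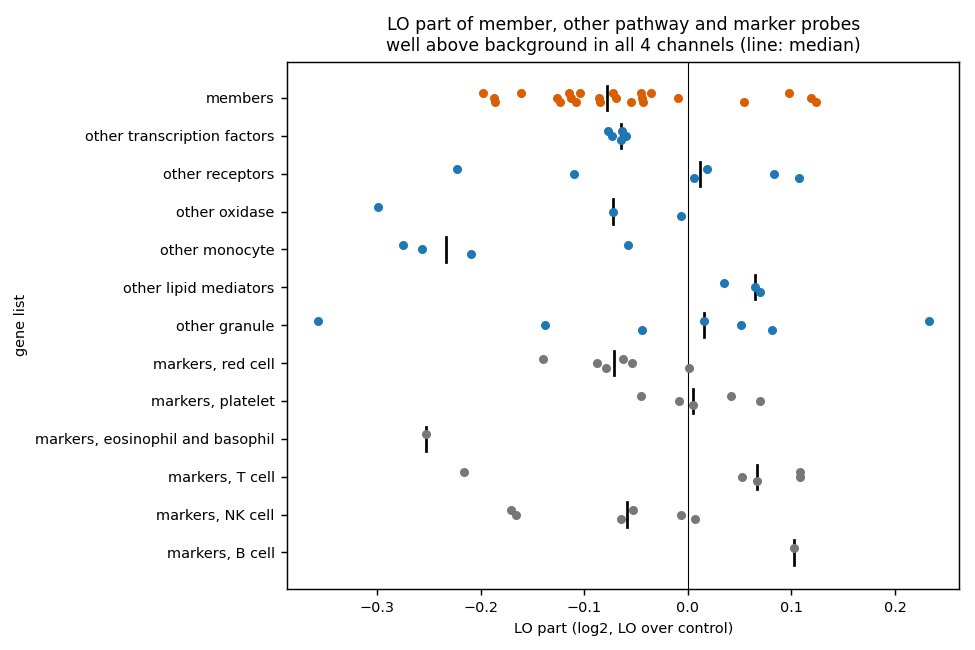
LO part (log2) of the bright probes of the members (orange), of other pathway genes (blue) and of markers of other blood cells (grey), with a line at each median. The members have 20 of 24 probes below 0, and the lowest and highest values of all lists are Serpinb1a at -0.36 and Bpi at 0.23.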

How the data were processed

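Both arrays were Agilent rat whole genome arrays, tied to build rn4 per the file headers. The authors deposited Agilent Feature Extraction 11.0.1.1 output with raw median and background-subtracted intensity, processed intensity after LOWESS, the log10 ratio of Cy5 over Cy3, its error and its p-value, and a value table of log10 ratios with no stated scale. That table equalled the processed ratio within 0.0004 (log2) in all 43379 non-control features of each array. The dyes in the labels gave the direction of each ratio, LO over control on the log2 scale. Features that the software marked as non-uniform or outlying in their population (338) were left out, of which 0 belonged to members, and spots of a probe were averaged. No depth exists for arrays, and their number limits the precision.

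Symbols came from a GRCr8 table through RefSeq accessions or, failing that, gene names (10767 of 41009 probes). That table was used for names and gene order. Promoters came from RefSeq sequences of the same build, which is not that of the array. A probe was bright when all 4 channels were well above background on every spot. The bound for Defa5 used Aquantile-normalized signals, with dim values raised to the lowest one above background. Genes given in every channel were those past a call, the highest and lowest LO and dye part of each role group, genes with 2 probes and 10 textbook members. Alternatives were normexp on median signals with offset 50 and loess, median centring, other filters, other limits and single arrays. The members and lists were chosen with earlier results of these data known, and the signal bands after values were seen. The steps were tested on simulated data, with Python 3.11.15, numpy 2.4.6, pandas 2.3.3, matplotlib 3.10.9, R 4.3.3 and limma 3.58.1.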

Additional observations from a re-analysis of the deposited data

How the results depend on the processing

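The alternatives kept the median LO part of the members below 0, from -0.15 after median centring of background-subtracted signals, where the median of all bright probes was -0.074, to -0.054 with normexp and loess, and from -0.12 to -0.017 on single arrays. That centring also moved the median dye part to 0.46. The count of members 1.5-fold lower was 1 (Defa5) with dim probes included or 1 channel above background on each array, while on single arrays, where Defa5 was not counted, it was 1 on array 1 (Cybb) and 1 on array 2 (Itgam), and the count higher ranged from 0 to 1 (Cybb on array 2). On single arrays, the p threshold was met by 1 to 2 members lower in LO. At a p of 0.05, 1 member, Cybb, passed towards a dye. Other pathway probes numbered 3 at a limit of 1.2-fold and 0 to 2 on single arrays, and marker probes 2 with dim probes included and 1 to 3 on single arrays. A dye part needs both arrays, and no software p exists for other normalizations, so those were not run. Of 24 bright probes, 7 kept their sign under all alternatives: Lyz2, Csf1r, Alox5ap, Ncf1, both Slpi probes and 1 Anxa1 probe. Single arrays were among the alternatives, so only the 6 probes lower and 2 higher on both arrays could do so. Of all bright probes, 12.7% were lower and 11.7% higher on both arrays. With normexp and loess Ncf1 fell to 0.015. The counts of probes below 0, the median without Lyz2 and Tyrobp (-0.079) and that of the brightest 13 member probes (-0.069) were added after seeing the data. No paired analysis was possible because both arrays hold the same pools.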
